A study of Arabidopsis thaliana with 17 samples.

Results

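The experiment compared salicylic acid (SA) with water in the Arabidopsis thaliana triple mutant npr1 sni1 ssn2. Its members are the 5 arrays, of 17 in the series, whose labels give this genotype: 2 arrays of SA-treated plants and 3 arrays of plants given water. All 5 carry the same 3 mutations, so by the labels the SA and water groups differ in treatment alone. Plants were grown in soil under 16 h days to 3 weeks of age, received 0.5 mM SA or water and were sampled at 16 h, and total RNA of the seedlings was hybridised to Affymetrix ATH1 arrays. The labels trace the SA arrays to 2 and the water arrays to 3 independent biological experiments. Their treatment text names the brca2a triple, and the group used here follows the genotype label. The clock time of treatment or harvest is not given in the sources used here. The other 12 arrays hold npr1 sni1 brca2a and npr1 sni1, each with 3 SA and 3 water arrays.

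SA is a hormone that switches on defence gene transcription in leaves, mainly through the co-activator NPR1, whose gene is mutated in all groups. SNI1 restrains defence genes, and mutations such as ssn2 were found because they suppress the effects of the sni1 mutation. Many leaf transcripts also follow the time of day: the circadian clock, light and sugar status set when genes of cold tolerance, flavonoid synthesis and starch breakdown peak, so that groups sampled at different hours differ in these genes whatever the treatment.

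Array levels are given as deposited intensities, and changes as the difference of mean log2(intensity + 16), SA minus water, with its standard error (SE), so that a log2 difference of 1 is 2-fold. Tests were limma's moderated test with Benjamini-Hochberg adjustment over all 22746 non-control probe sets, and a gene rose or fell where its adjusted p was under 0.05. With 2 arrays against 3, an exact permutation test of a single value cannot go below 0.1. Of the 22746, 9310 had no gene name here, and many well-known genes of the clock and of SA responses are therefore not analysed here. A list member counts as measured only where a named probe set stood for it. This held for 7 of 43 cold, 8 of 49 clock and 4 of 77 light genes. It held for 6 of 137 SA response and 6 of 67 WRKY genes. The list counts below describe the measured members, not whole classes. No named probe set stood for NPR1, SNI1 or SSN2, so the genotype was not checked. The 5 arrays fell into 2 tight sets: Pearson's r was 0.9962 between the SA arrays, between 0.9967 and 0.9983 among the water arrays and between 0.9612 and 0.9621 across the treatments, and 90.46% of the variance lay on a first principal component that split SA from water. Median intensity was between 57.2 and 59.9. The leaf markers RCA, SBPASE and PRK, all enzymes of carbon fixation, summed to between 21130 and 22241 on the SA arrays and between 20152 and 22290 on the water arrays. The 3 measured seed markers summed to between 26.9 and 28.3 on the SA arrays and between 26.7 and 30.3 on the water arrays, and none of the 3 passed the test. The 5 flower and pollen markers summed to between 74.2 and 74.4 on the SA arrays and between 61.3 and 68.9 on the water arrays, with 1 higher. The only measured root marker, PYK10, a beta-glucosidase, had 705 and 667 on the SA arrays, against 953, 960.01 and 961 on the water arrays (-0.47 ± 0.05, adjusted p = 0.00085). Whether the root share of the samples differed was not tested, and in whole seedlings fewer cells of a type and less RNA per cell cannot be told apart.

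SA and water plants differed widely. Of 22746 probe sets, 7558 passed (33.2%), 4269 higher (18.8%) and 3289 lower (14.5%) after SA, and 9347 had an unadjusted p under 0.05. At least 2-fold changes were found for 1025 probe sets (4.51%), 496 higher and 529 lower, and at least 4-fold changes for 74 higher and 136 lower. Over all probe sets the median log2 difference was 0.0016 and the median SE 0.067. With each gene read from its brightest probe set, 3987 of 13286 genes passed (30.0%), 2243 higher (16.9%) and 1744 lower (13.1%). The largest changes of all belonged to probe sets without a gene name, at 4.58 and -6.02. Each treatment was 1 group of arrays, so any feature that all arrays of a group share, such as the hour of harvest, cannot be told apart from SA.

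**Figure D1:**
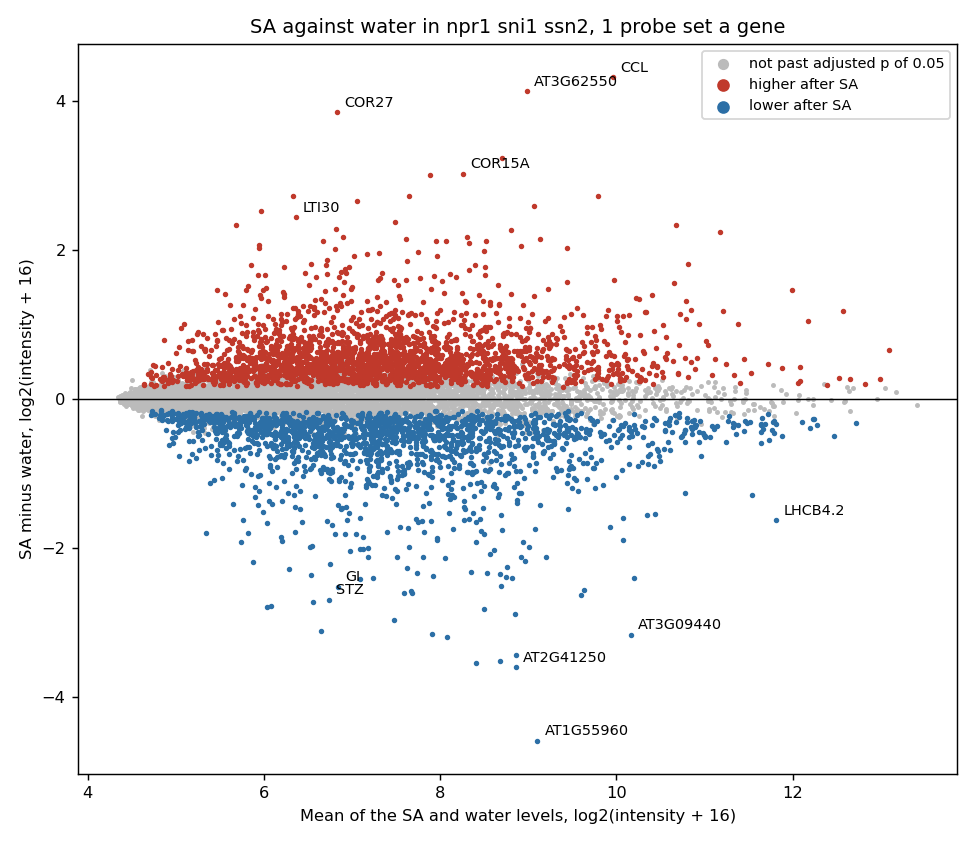
Difference of SA and water (vertical axis, log2) against the mean of the SA and water levels (horizontal axis, log2(intensity + 16)) for 13286 genes, 1 probe set each. Red points rose and blue points fell after SA, grey points did not pass; the named genes at the upper and lower edge include CCL at 4.32 and AT1G55960 at -4.59.

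Of the lists with a measured member, the cold list had the highest median change. The lists and their members were chosen with earlier results of these data known, so the list counts are a description. All 7 measured members of the cold list passed, 6 higher and 1 lower, where 30.0% of all genes passed. Their median log2 difference was 2.33, where the median over all genes was -0.0019. COR27, a cold-induced gene that is also under clock control, had 372 and 465 on the SA arrays, against 14.3, 15.04 and 13.1 on the water arrays. It was thus near the lower end of the scale in every water sample and over 20 times brighter in both SA samples (3.84 ± 0.096, adjusted p = 4.8e-06). COR15A, a stromal protein that protects chloroplast membranes during freezing, had 751 and 982 on the SA arrays, against 91.4, 90.6 and 93.5 on the water arrays (3.02 ± 0.11, 1.6e-05). Its close relative COR15B had 364 and 457 on the SA arrays, against 102, 95.9 and 81.4 on the water arrays (1.96 ± 0.12, 0.0001). In both, each SA array lay above every water array. The dehydrin gene LTI30 had 165 and 185 on the SA arrays, against 18.7, 17.2 and 22.1 on the water arrays (2.44 ± 0.081, 1.1e-05), and the dehydrin gene COR47 changed far less, with 1405 and 1417 on the SA arrays, against 985, 979 and 958 on the water arrays (0.53 ± 0.047, 0.00042). AT4G33980, entered in the list by its locus tag, had 100.01 and 98.96 on the SA arrays, against 6.42, 7.73 and 6.57 on the water arrays (2.33 ± 0.051, 3.3e-06). Against these 6, the zinc finger gene STZ (ZAT10), a repressor gene induced by cold, salt and wounding, fell: it had 26.6 and 25.1 on the SA arrays, against 255, 270.3 and 243 on the water arrays (-2.70 ± 0.061, 3.4e-06). The groups overlapped for none of the 7, where they did not overlap for 53.1% of all probe sets.

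Clock genes changed in both directions. Of the 8 measured clock genes, 2 rose, 4 fell and 2 did not pass, where 16.9% of all genes rose and 13.1% fell. Their median was -0.42, or -0.11 with each gene read from all its probe sets. GIGANTEA (GI), an evening-phased gene that links the clock to flowering and to cold tolerance, had 28.5 and 35.4 on the SA arrays, against 279, 295 and 212 on the water arrays. It was lower on both SA arrays than on any water array, and the log2 difference was -2.53 ± 0.14 (adjusted p = 7.9e-05). The loci AT1G69570, AT5G52660 and AT4G01280, listed by locus tag, fell by 2.37 ± 0.11, 1.07 ± 0.059 and 0.73 ± 0.082 on the log2 scale (adjusted p = 3.3e-05, 7.1e-05 and 0.001). AT1G69570 was the dimmest of them after SA, with 20.3 and 29.7 on the SA arrays, against 199.7, 181 and 204 on the water arrays. TIME FOR COFFEE (TIC), a nuclear regulator of the clock around dawn, rose, with 448 and 401 on the SA arrays, against 256, 232 and 266 on the water arrays (0.72 ± 0.079, 0.00095). AT1G72390 also passed, at 0.33 ± 0.083 (0.025), but its adjusted p was between 0.054 and 0.096 without SA replicate 1 or any 1 water array, and 0.13 without moderation. FIO1, whose mutants have a long clock period, had 44.1 and 47.1 on the SA arrays, against 44.1, 52.3 and 55.8 on the water arrays, and XCT, a nuclear clock gene, had 67.5 and 65.1 on the SA arrays, against 77.8, 70.8 and 68.6 on the water arrays. Neither passed (-0.11 and -0.10, adjusted p = 0.4 and 0.29), and their SA and water arrays differed by little.

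Light signalling genes were mostly lower after SA. Of 4 measured members, 3 fell and 1 rose, with a median of -1.82, where 13.1% of all genes fell and 16.9% rose. HYH, a bZIP factor that acts with its homologue HY5 in light-grown seedlings, had 72.5 and 61.4 on the SA arrays, against 486, 459 and 499 on the water arrays (-2.59 ± 0.075, adjusted p = 7.1e-06). AT3G44450, listed by locus tag, had 51.2 and 61.7 on the SA arrays, against 278, 254 and 295 on the water arrays (-2.01 ± 0.089, 3.1e-05). AT3G52740, listed in the same way, had 54.3 and 53.95 on the SA arrays, against 225, 193 and 187 on the water arrays (-1.63 ± 0.083, 5.2e-05). Each of the 3 was at least 3 times as bright in every water sample as in any SA sample. FHL, which carries phytochrome A into the nucleus, was dim, with 15.4 and 16.6 on the SA arrays, against 9.54, 10.3 and 12.3 on the water arrays (0.26 ± 0.062, 0.021). Its adjusted p was between 0.063 and 0.11 without any 1 of the arrays other than water replicate 3, and 0.09 without moderation. Outside the list, AFR, an F-box gene of phytochrome A signalling, had 51.2 and 74.9 on the SA arrays, against 475, 483 and 424 on the water arrays and was among the 20 lowest genes with a RefSeq name (-2.61 ± 0.13, 5.3e-05).

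**Figure D2:**
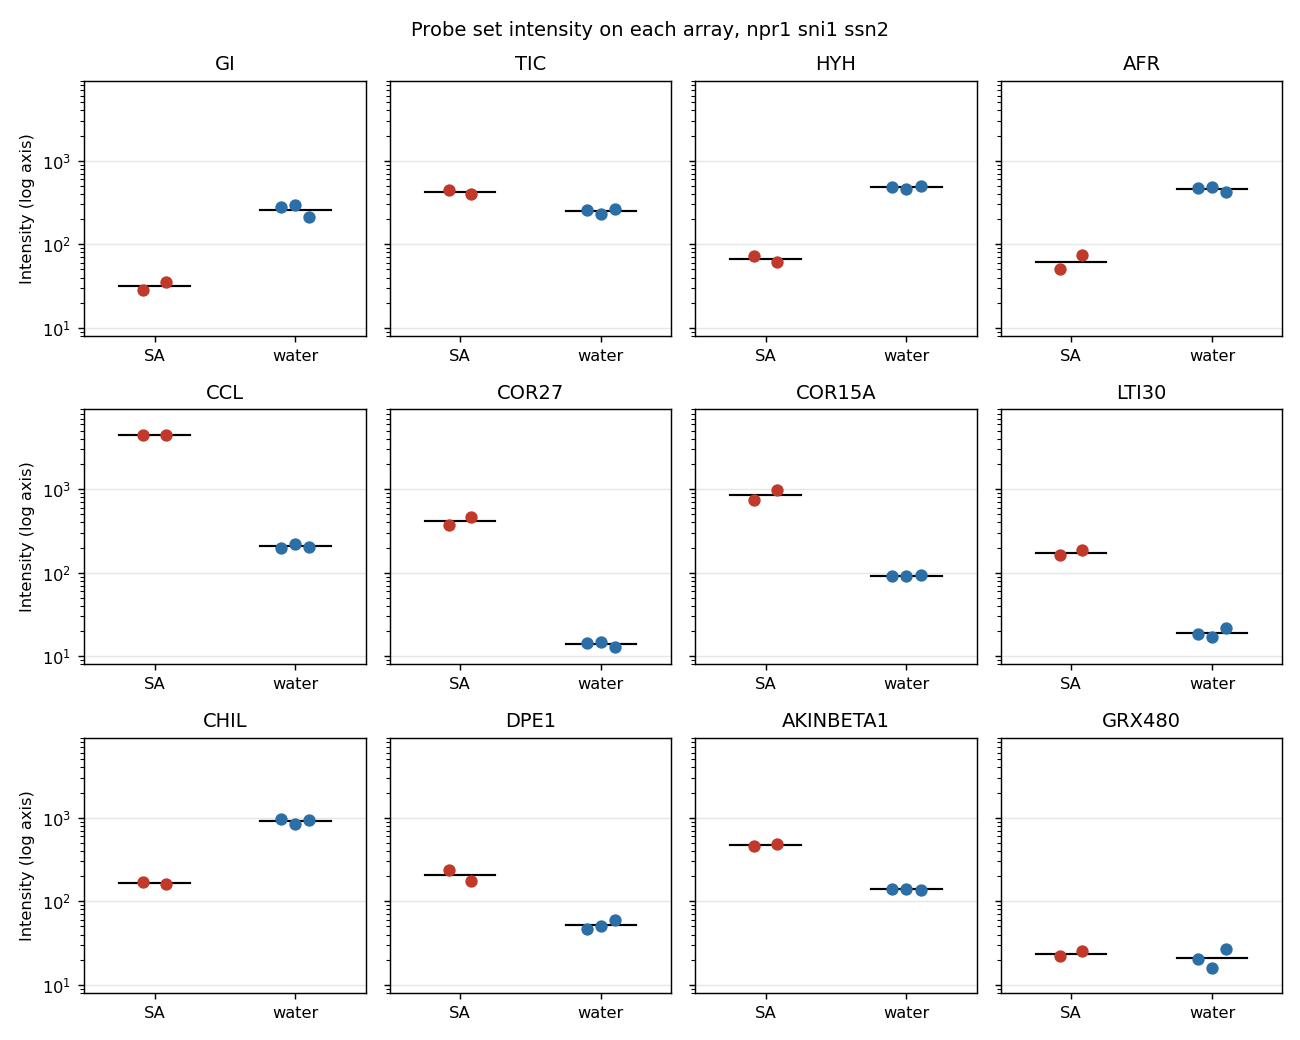
Intensity on each array (log axis) of 12 genes, with SA arrays (red, 2) left of water arrays (blue, 3) and the group mean on the log2(intensity + 16) scale as a bar. The groups are apart for the clock, light, cold, flavonoid and starvation genes shown, all of which passed the test, and overlap for the SA response gene GRX480. Groups did not overlap for 53.1% of all probe sets. Among genes not shown, they are apart for the SA response gene AT5G03350 and overlap for the clock gene FIO1.

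Genes of dark and sugar starvation were mostly higher after SA. Of 16 measured genes, 10 rose, 1 fell and 5 did not pass, with a median of 0.46. The shares were 62.5% higher and 6.25% lower, against 16.9% and 13.1% of all genes. AKINBETA1, a regulatory subunit of the energy-sensing kinase SnRK1, had 464 and 489 on the SA arrays, against 140.2, 141 and 135 on the water arrays (1.67 ± 0.052, adjusted p = 9.1e-06). DPE1, the plastid disproportionating enzyme of starch breakdown, had 236 and 176 on the SA arrays, against 46.9, 51.1 and 59.03 on the water arrays (1.69 ± 0.13, 0.00025). AT4G33150 (LKR/SDH), of lysine breakdown, had 175 and 169.8 on the SA arrays, against 80.2, 79.1 and 71.4 on the water arrays (1.02 ± 0.061, 9.5e-05). Branched-chain amino acid breakdown and its electron transfer chain moved by less. Of 6 measured genes 5 rose (83.3%, against 16.9% of all genes): MCCA, MCCB, IVD, ETFALPHA and ETFBETA, at 0.40 to 0.60. These 6 are among the 16, and they were counted apart after the values were seen. ETFQO was at 0.0083 ± 0.085 (adjusted p = 0.97). PPDK, a pyruvate phosphate dikinase, had 0.46 ± 0.051, and PWD, at AT4G24450, had 0.76 ± 0.10. Of these, the calls of ETFBETA and PWD were lost without moderation (adjusted p = 0.067 and 0.057). EXO, a gene of brassinosteroid-promoted growth, fell, with 337 and 286 on the SA arrays, against 529, 583 and 625 on the water arrays (-0.86 ± 0.096, 0.001). The alpha-amylase gene AMY1 had 0.072, D2HGDH 0.022, the bZIP factor BZIP53 -0.17 and the sugar transporter gene SAG29 -0.26, none of which passed. BZIP53 passed after median centring (0.038) and with an offset of 50 (0.047), and SAG29 without water replicate 1 (0.044), after median centring (0.046) and in 3 other settings.

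Autophagy and protein turnover genes were more often higher than lower. Of 27 measured genes, 14 rose, 2 fell and 11 did not pass, with a median of 0.27. The shares were 51.9% higher and 7.41% lower, against 16.9% and 13.1% of all genes. Without SA replicate 2, 9 rose and 2 fell. Of the 9 measured ATG8 genes, whose products coat the autophagosome membrane, 7 rose (77.8%, against 16.9% of all genes) and none fell. The 9 log2 differences lay between 0.077 and 0.96. ATG8E had 245 and 245 on the SA arrays, against 117, 119 and 119 on the water arrays (0.96 ± 0.046, adjusted p = 4.2e-05), and ATG8F had 1128 and 1102 on the SA arrays, against 568, 578 and 557 on the water arrays (0.96 ± 0.049, 5.1e-05). Both were about doubled in each SA sample. GAMMA-VPE, a vacuolar protease, had 0.87 ± 0.064, and the ubiquitin-conjugating enzyme gene UBC19 0.89 ± 0.10. The ATG8 count was made after the values were seen.

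SA response genes passed at a share near that of all genes. Of 6 measured members of the list, 2 rose, none fell and 4 did not pass (33.3%, where 30.0% of all genes passed). Without SA replicate 2, 1 rose, and without water replicate 3, 3 did. AT5G03350, entered by locus tag, had 560.3 and 532 on the SA arrays, against 189, 199 and 208 on the water arrays (1.39 ± 0.06, adjusted p = 2.8e-05). UGT76B1, a glucosyltransferase of the SA and N-hydroxypipecolic acid pathway, was dim, with 12.4 and 14.03 on the SA arrays, against 8.82, 7.46 and 7.13 on the water arrays (0.30 ± 0.058, 0.0094), and its adjusted p was 0.054 without SA replicate 2 and 0.052 without moderation. The glutaredoxin gene GRX480 had 22.3 and 25.1 on the SA arrays, against 20.5, 15.99 and 26.6 on the water arrays, so that the groups overlapped (0.11 ± 0.12, 0.59). SAG101, a partner of EDS1, had 25.9 and 25.8 on the SA arrays, against 16.5, 17.7 and 24.9 on the water arrays (0.24 ± 0.10, 0.15), and passed without water replicate 3 (0.009). UGT74F1, which glucosylates SA, had -0.04, and BSMT1, which methylates it, was at 5.83 and 5.63 on the SA arrays and 6.32, 5.21 and 5.45 on the water arrays, at the bottom of the scale in both. Of 6 WRKY factors, 1 passed (16.7%), or 2 without SA replicate 1: WRKY47 rose (0.40 ± 0.065, 0.0044), and WRKY53 (0.17), WRKY6 (0.15), WRKY20 (0.076), WRKY42 (-0.032) and WRKY22 (-0.084) did not pass.

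Genes of pattern-triggered immunity moved both ways, with 6 of 19 higher, 5 lower (57.9% passing, against 30.0% of all genes) and a median of 0.012, or 0.073 without SA replicate 1. CML41, a calmodulin-like protein of plasmodesmata, had 87.9 and 95.3 on the SA arrays, against 14.2, 13.8 and 16.9 on the water arrays (1.80 ± 0.067, adjusted p = 1.7e-05). CML23, another calmodulin-like gene, had 18.5 and 23.1 on the SA arrays, against 98.3, 108 and 95.7 on the water arrays (-1.67 ± 0.078, 3.7e-05). The ubiquitin ligase genes PUB26 and PUB19 fell by 1.29 ± 0.072 and 1.26 ± 0.13. Of the 9 measured PUB genes, counted after the values were seen, 2 rose and 4 fell (66.7% passing, against 30.0% of all genes).

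Jasmonate genes moved both ways too, with 4 of 15 higher, 5 lower (60.0% passing, against 30.0% of all genes) and a median of -0.026. The thionin gene THI2.2 had 113 and 148 on the SA arrays, against 784, 682 and 680.02 on the water arrays (-2.33 ± 0.12, adjusted p = 5.3e-05). JMT, the jasmonate methyltransferase, had 12.8 and 11.8 on the SA arrays, against 43.5, 48.7 and 45.6 on the water arrays (-1.13 ± 0.057, 5.1e-05). The jacalin lectin gene JAL23 rose, with 48.5 and 33.1 on the SA arrays, against 17.3, 19.2 and 18.7 on the water arrays (0.71 ± 0.12, 0.0045), a call lost without moderation (0.076). The defensin genes PDF1.2 and PDF1.2b, whose transcripts accumulate with jasmonate, had 0.048 and -0.00074 (adjusted p = 0.55 and 1.0).

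Heat shock and cytosolic folding genes were mostly lower after SA. Of 6 measured genes, 4 fell, none rose and the median was -0.88, where 13.1% of all genes fell. AT5G48570 (FKBP65), a co-chaperone with prolyl isomerase activity, had 16.99 and 21.4 on the SA arrays, against 148, 156 and 165 on the water arrays (-2.29 ± 0.076, adjusted p = 1.1e-05). Hop3, which links HSP70 and HSP90, had 15.5 and 13.98 on the SA arrays, against 64.6, 59.9 and 75.2 on the water arrays (-1.42 ± 0.086, 9.8e-05). Hsp70-2 had 79.6 and 85.7 on the SA arrays, against 194, 209 and 199.7 on the water arrays (-1.14 ± 0.058, 5.1e-05), and Hop2 fell by 0.63 ± 0.066. In these 4 genes each SA array was below each water array, while Hop1 overlapped (-0.058, 0.79) and CLPB2 had -0.087 (0.25).

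**Figure D3:**
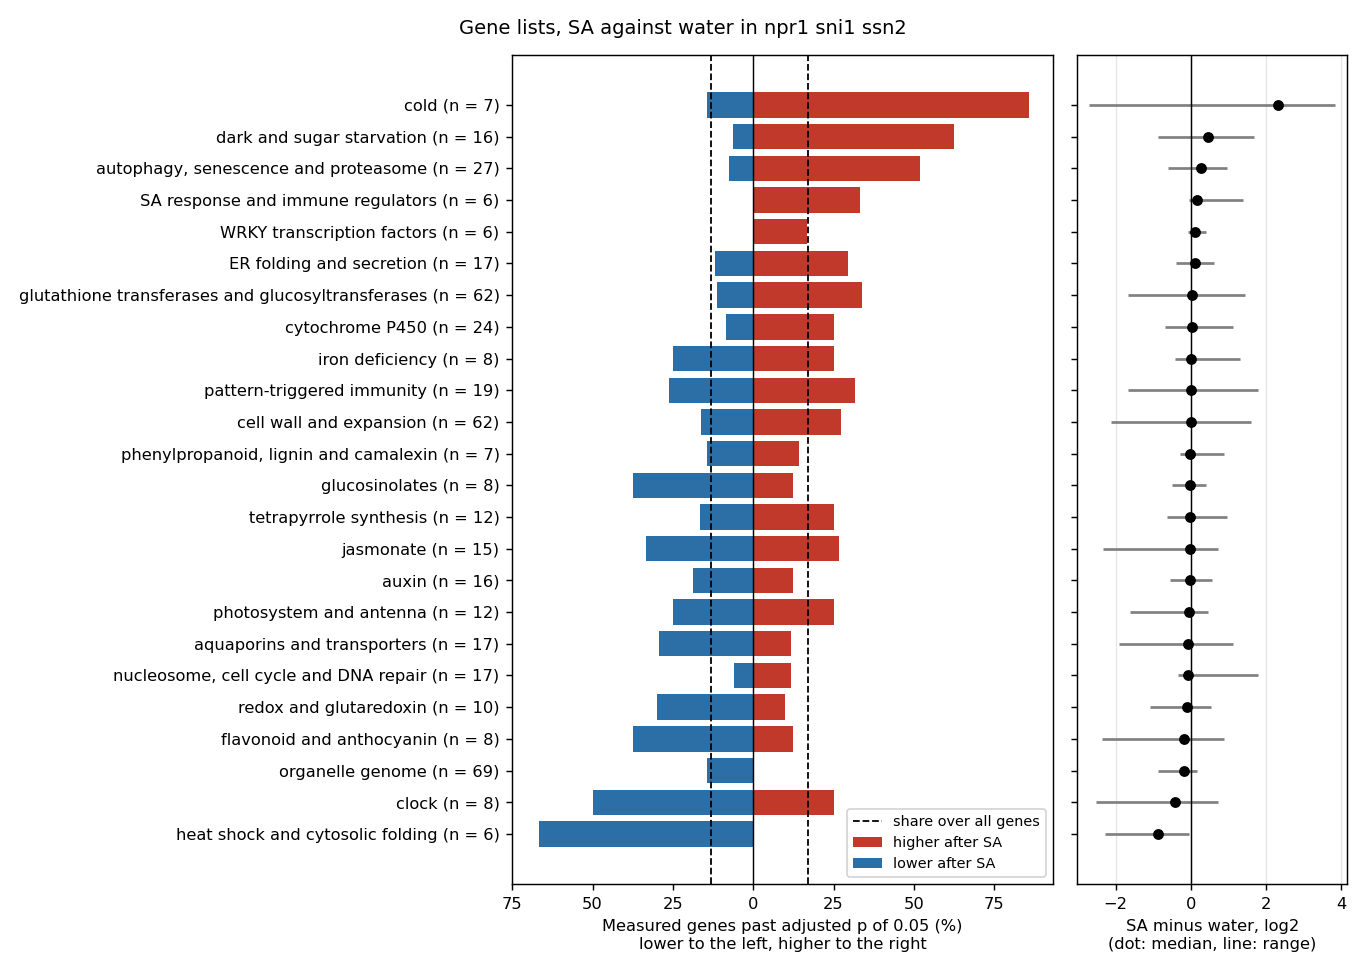
Left, percent of measured genes of each list with at least 6 measured members that rose (red, to the right) or fell (blue, to the left) after SA, with dashed lines at the shares over all genes, 16.9% and 13.1%. Right, the median (dot) and range (line) of the log2 difference; the cold list has the highest median, 2.33, and the heat shock list the lowest, -0.88.

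Of 8 measured genes of flavonoid synthesis, 3 fell, 1 rose and 4 did not pass. The shares were 37.5% lower and 12.5% higher, against 13.1% and 16.9% of all genes. The median was -0.18, which was -0.064 without SA replicate 1 and -0.29 without SA replicate 2. CHIL, a chalcone isomerase-like protein that raises flavonol synthesis, had 169 and 162 on the SA arrays, against 971, 838 and 936 on the water arrays (-2.36 ± 0.074, adjusted p = 9.6e-06). The flavonoid glycosyltransferase genes UGT78D2 and UGT78D1 fell by 1.66 ± 0.073 and 0.97 ± 0.11. UGT78D2 had 169 and 181 on the SA arrays, against 626, 598 and 545 on the water arrays. DFR, of the anthocyanin branch, rose instead, with 74.5 and 83.1 on the SA arrays, against 38.6, 32.5 and 34.2 on the water arrays (0.89 ± 0.073, 0.00031).

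Photosynthesis genes moved by small amounts, with 1 exception. Of 12 measured genes of photosystems and antennae, 3 rose and 3 fell, where 30.0% of all genes passed, with a median of -0.057. Without SA replicate 2, 1 rose and 3 fell. LHCB4.2, which encodes the minor antenna protein CP29, had 1945 and 2129 on the SA arrays, against 6197, 6749 and 6058 on the water arrays (-1.63 ± 0.071, adjusted p = 2.9e-05). Its relative LHCB4.1 rose by 0.26 ± 0.078, with an adjusted p of 0.047 close to the threshold, and LHCB4.3 had 0.14 ± 0.14 (0.55). Of 12 tetrapyrrole genes, 3 rose and 2 fell (41.7%). PORB, the light-dependent protochlorophyllide reductase, had 1470.3 and 1409 on the SA arrays, against 799, 730.3 and 663 on the water arrays (0.97 ± 0.084, 0.00039). HEMA2, a glutamyl-tRNA reductase, rose by 0.75 ± 0.073, and HEME2 fell (-0.64 ± 0.053). Of 69 organelle-genome genes, 10 fell (14.5%, close to the 13.1% of all genes that fell) and none rose, with a median of -0.18. Among them rps16, a plastid ribosomal protein, had 40.7 and 47.8 on the SA arrays, against 83.9, 98.3 and 98.3 on the water arrays (-0.86 ± 0.087, 0.00069). Water replicate 3 was the brightest of the 5 arrays for 46 of the 69. The number that fell was 6 without either SA array, 12 without water replicate 1 and 7 without water replicate 2. Without water replicate 3 it was 12, with 1 gene higher, and the median was -0.065.

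Sugar, redox and metal genes gave a few large changes. Of 14 measured sugar transporter genes with a SWEET symbol, counted after the values were seen, 2 rose and 3 fell (35.7%, near the 30.0% of all genes). SAG29, given above, was not in this count. SWEET2, of the vacuole membrane, had 153 and 164 on the SA arrays, against 649.7, 629 and 649.9 on the water arrays (-1.92 ± 0.053, adjusted p = 6.3e-06). SWEET13 fell (-1.17 ± 0.062, 6e-05) and SWEET4 rose (1.12 ± 0.14, 0.0014). The manganese transporter gene MTP11 fell by 1.43 ± 0.095, and the glutathione reductase gene GR1 by 1.09 ± 0.068. In the iron deficiency list 2 of 8 rose and 2 fell, where 16.9% of all genes rose and 13.1% fell. Without any 1 of the water arrays, 1 of the 8 fell. BHLH101, a transcription factor induced by iron shortage, had 133 and 137 on the SA arrays, against 44.2, 38.2 and 51.4 on the water arrays (1.32 ± 0.095, 0.00018).

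Detoxification genes rose more often than they fell: of 62 glutathione transferase and glucosyltransferase genes 21 rose and 7 fell (33.9% and 11.3%, against 16.9% and 13.1% of all genes), with a median of 0.037. The numbers were 20 and 4 without SA replicate 1, 14 and 6 without SA replicate 2, and 14 and 5 without water replicate 2. UGT85A5 had 151 and 158 on the SA arrays, against 42.03, 56.5 and 42.00 on the water arrays (1.45 ± 0.11, adjusted p = 0.00021). Of the 5 measured UGT85A genes, counted after the values were seen, 4 rose (80.0%, against 16.9% of all genes). Neighbouring UGT85A genes are close copies, so their probe sets may share signal. UGT73B1 had 1.33 ± 0.073. Of 24 cytochrome P450 genes, 6 rose and 2 fell, a share of 33.3% near the 30.0% of all genes. Without water replicate 1, 7 rose and none fell, and without water replicate 2, 6 rose and none fell. The list was led by CYP71B24 and CYP71B23 (1.11 and 0.92), and members of this family too can share signal.

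Growth genes split. Of 62 cell wall genes 17 rose and 10 fell (27.4% and 16.1%, against 16.9% and 13.1% of all genes), with a median of -0.00089. The numbers were 11 and 6 without water replicate 1, 14 and 6 without SA replicate 1, 11 and 7 without SA replicate 2, and 11 and 8 without water replicate 2. The xyloglucan endotransglucosylase gene XTH32 had 254 and 183 on the SA arrays, against 1008, 953 and 1022 on the water arrays (-2.13 ± 0.13, adjusted p = 9.3e-05). TBL26, of the family that acetylates wall polysaccharides, had 49.98 and 42.1 on the SA arrays, against 262, 221 and 236 on the water arrays (-2.04 ± 0.089, 2.9e-05), whereas the expansin gene EXPA16 had 244 and 269 on the SA arrays, against 83.5, 68.1 and 70.7 on the water arrays (1.60 ± 0.089, 7.1e-05). Among hormone genes, the type-A cytokinin response regulator ARR15 fell (-1.004 ± 0.085, 0.00035), the gibberellin receptor GID1A rose (1.03 ± 0.086, 0.00033), and of 16 auxin genes 2 rose and 3 fell (31.2%, near the 30.0% of all genes), or 2 and 1 without SA replicate 2. HIS1-3, a drought-induced linker histone, had 161 and 196 on the SA arrays, against 42.1, 43.6 and 33.7 on the water arrays (1.80 ± 0.11, 0.00011), while 14 of 17 nucleosome, cell cycle and repair genes did not pass. Of the 17, 2 rose and 1 fell, 2 and none without SA replicate 1 or without water replicate 1 or 2, and 2 and 2 without SA replicate 2.

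Past the lists, the 15 highest and the 15 lowest genes were mostly loci without a name in RefSeq. CCL (CCR-like), whose transcript is known for clock-controlled stability, was the highest, with 4462 and 4426 on the SA arrays, against 201, 223 and 201 on the water arrays (4.32 ± 0.062, 19.9-fold, adjusted p = 9e-07). AT3G62550 followed, with 1983 and 2232 on the SA arrays, against 111, 99.9 and 104 on the water arrays (4.13 ± 0.072, 1.7e-06). The neighbouring loci AT4G30660 and AT4G30650 had 3.23 and 3.01, and whether their probe sets share signal was not tested. At the other end, AT1G55960 had 91.2 and 101 on the SA arrays, against 2781, 2721 and 2552 on the water arrays (-4.59 ± 0.065, 9e-07), and AT2G41250 had 112 and 122 on the SA arrays, against 1493, 1583 and 1740.2 on the water arrays (-3.61 ± 0.079, 3.3e-06). AT3G09440, the brightest of the 15 lowest, had 353 and 379.6 on the SA arrays, against 3345, 3403 and 3543 on the water arrays (-3.17 ± 0.057, 1.8e-06). All of these were chosen for their change among genes whose groups did not overlap, so the separation of their arrays was set by the choice.

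Of the 20 highest and 20 lowest genes with a RefSeq name, chosen after the values were seen, several belong to none of the groups above. AT5G61590 (DEWAX), a repressor of wax synthesis known to be induced in darkness, had 619 and 674 on the SA arrays, against 165, 136 and 121 on the water arrays (2.09 ± 0.12, adjusted p = 7.8e-05). THIC, the thiamine pyrimidine synthase, had 2778 and 2729 on the SA arrays, against 870.01, 930.1 and 987 on the water arrays (1.55 ± 0.066, 2.6e-05). SUFE2, of iron-sulfur cluster assembly, had 109 and 107 on the SA arrays, against 17.8, 13.2 and 12.98 on the water arrays (2.02 ± 0.08, 2.1e-05). Among the lowest, AT3G21670 (NPF6.4), of a nitrate transporter family, had 507 and 481 on the SA arrays, against 2531, 2688 and 2907 on the water arrays (-2.42 ± 0.072, 7.6e-06). Fes1A, a cytosolic co-chaperone, fell by 2.12 ± 0.061, and its relative Fes1B rose by 1.77 ± 0.11. The wax ester synthase gene WSD1, in the lipid list, fell as well (-1.16 ± 0.12, 0.00071).

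The same SA contrast in the other genotypes was set beside these values, without a test, because the 5 arrays were normalized apart from the other 12 and genotype and experiment cannot be told apart. Shares of probe sets that passed were 33.2% in npr1 sni1 ssn2, 4.65% in npr1 sni1 brca2a and 7.47% in npr1 sni1, and of genes 30.0%, 3.94% and 6.47% in that order. Those of the other genotypes depended on 1 array: without water replicate 2 of npr1 sni1, left out after the data were seen, 15.4% of probe sets passed in npr1 sni1 brca2a, which shares its estimate of spread, and 19.6% in npr1 sni1. Of the 593 probe sets higher after SA in npr1 sni1 brca2a, 378 were also higher in npr1 sni1 ssn2 (63.7%, and 8.85% of the 4269), and of the 1123 in npr1 sni1, 517 were (46.0%, and 12.1% of the 4269), where 18.8% of all probe sets were higher in npr1 sni1 ssn2. Of the 464 lower in npr1 sni1 brca2a, 254 were also lower in npr1 sni1 ssn2 (54.7%, and 7.72% of the 3289), and of the 577 in npr1 sni1, 229 were (39.7%, and 6.96% of the 3289), where 14.5% of all were lower. Opposite directions were passed by 91 probe sets with npr1 sni1 brca2a and by 234 with npr1 sni1. Without water replicate 2 of npr1 sni1, 1158 of its 2123 higher (54.5%) and 1155 of its 2341 lower probe sets (49.3%) had the same direction in npr1 sni1 ssn2, and 467 the opposite one; with npr1 sni1 brca2a it was 1125 of 1784 (63.1%), 986 of 1711 (57.6%) and 273.

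The cold genes did not share 1 pattern over the genotypes. For COR27 the log2 difference was 3.84 in npr1 sni1 ssn2, 0.011 in npr1 sni1 brca2a and 0.21 in npr1 sni1, where it passed only without water replicate 3 (adjusted p = 0.04) and not with all arrays (0.076). LTI30 had 2.44, -0.48 and 2.60 in the same order of genotypes: in npr1 sni1 it had 222, 226 and 213 on the SA arrays, against 20.7, 26.3 and 22.3 on the water arrays, so that the groups did not overlap, although the test did not pass there (adjusted p = 0.25). In npr1 sni1 brca2a it had 30.8, 892 and 28.1 on the SA arrays, against 386, 19.2 and 339 on the water arrays, and its spread enters the fit shared by the 12 arrays. COR15A had 3.02, -0.016 and 0.49, COR15B 1.96, -0.39 and -0.13, and COR47 0.53, -0.14 and 0.44, and none of the 3 passed in the other genotypes.

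GI, CHIL and genes of the SA response are given in the same order of genotypes. GI had -2.53, -0.62 and -0.25, and in npr1 sni1 -0.48 without water replicate 2 (adjusted p = 0.023). CHIL had -2.36, -1.15 and -0.71, and did not pass in npr1 sni1 brca2a or npr1 sni1 (0.077 and 0.27). Without water replicate 2 of npr1 sni1, CHIL had -1.22 there (1.9e-06). The SA response gene GRX480 had 0.11 in npr1 sni1 ssn2, 0.11 in npr1 sni1 brca2a and 2.46 in npr1 sni1, where it passed (adjusted p = 9.7e-06). AT5G03350 passed in the 3 genotypes, with 1.39, 1.07 and 2.83.

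**Figure D4:**
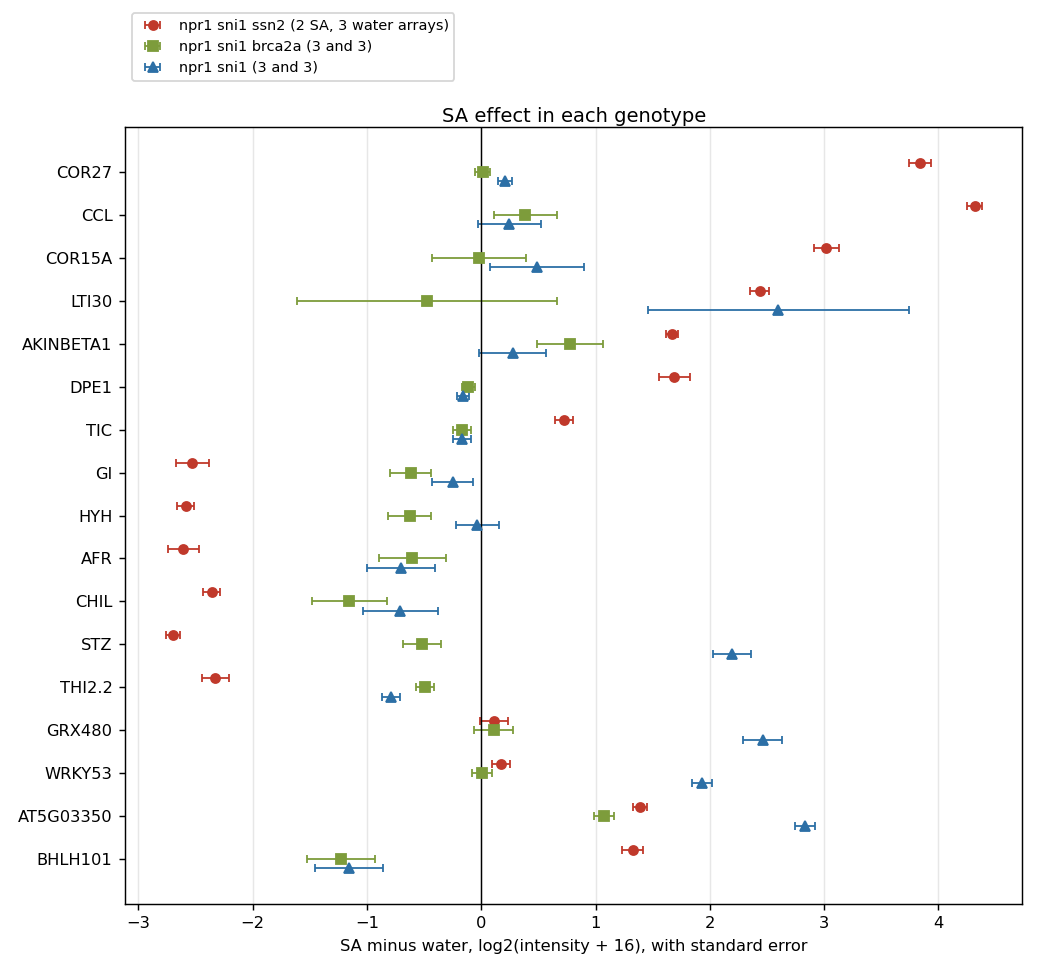
Log2 difference of SA and water with its standard error for 17 genes in npr1 sni1 ssn2 (red circles, 2 and 3 arrays), npr1 sni1 brca2a (green squares, 3 and 3) and npr1 sni1 (blue triangles, 3 and 3). COR27 and CCL stand at 3.84 and 4.32 in npr1 sni1 ssn2; in npr1 sni1 brca2a and npr1 sni1 COR27 stands at 0.011 and 0.21 and CCL at 0.38 and 0.25 (CCL at 0.65 in npr1 sni1 without its water replicate 2), while GRX480 stands at 2.46 in npr1 sni1; the difference between genotypes was not tested.

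Intensities were also read across all 17 arrays, with the reservation that the 2 tables were normalized apart. COR27 was between 8.82 and 16.5 on the other 12 arrays, so that its water level in npr1 sni1 ssn2 lay within that range and its SA level far above it. The other cold genes were not all alike: COR15A was between 148 and 1856 and LTI30 between 19.2 and 892 on the 12, so that their SA levels in npr1 sni1 ssn2 lay within those ranges, and the COR15A water levels below them. COR47 was between 1050.3 and 1976, with its SA levels inside and its water levels below, and COR15B between 61.1 and 195, with its water levels inside and its SA levels above. GI was between 54.2 and 116 on the 12, so that both SA arrays of npr1 sni1 ssn2 lay below and its 3 water arrays above all of them. HYH showed the same, with 131 to 293 on the 12 arrays. CCL lay the other way round, with 860.1 to 2503 on the 12 arrays, above the water arrays and below the SA arrays of npr1 sni1 ssn2. Among the 15 highest genes the SA arrays lay above all 12 in 13 and the water arrays below all 12 in 5, and among the 15 lowest the SA arrays lay below all 12 in 13 and the water arrays above all 12 in 9. Since these genes were chosen for their change, the counts are a description.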

How the data were processed

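Per the labels, 5 ATH1 arrays of npr1 sni1 ssn2 (2 SA, 3 water) were deposited by the authors as linear probe set intensity values in 1 table, apart from the 12 arrays of the other genotypes. The submitters' processing notes name PLIER, a probe summary method, with no version, and the genome build is not given in the sources used here. The authors also deposited log2 values of the same arrays, used as an alternative; they differed from log2 of the intensities by a constant per probe set, whose origin is not stated. An offset of 16 was added before taking log2, and this makes the changes of dim probe sets look smaller than they are. The number of arrays limits the precision.

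Of 22810 probe sets, 64 controls were left out. Platform annotation paired 13513 with 1 gene and 503 with several and did not list 8730; 13436 were named through RefSeq, for 13286 loci. SA minus water was fitted with limma 3.58.1 (R 4.3.3) lmFit and eBayes, with no block, and adjusted by Benjamini-Hochberg over 22746 probe sets. On simulated data with 200 changed probe sets (log2 change of 1) the fit recovered 87.5%, with 4.37% false among its calls. The simulation drew probe sets independently, with the same spread in both groups, and changed far fewer than passed in the data. It therefore does not give the share of false calls among the results here. Each gene was read from its brightest probe set.

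Genes were named by rule: the 15 highest and 15 lowest with groups apart, up to 4 called members per list by size of change, and all measured members of the clock, light, cold, SA response and starvation lists. Other genes named with their values were chosen after the values were seen. Members and the 41 lists were chosen with earlier results of these data known; 39 lists had a measured member, and 16 entries were left out after a check of their symbols. Lists were described by counts and medians, with no set test. Alternatives changed the offset, scaling, dim-probe filter, source of values, spread model, pairing, arrays and fold minimum. Planned promoter motifs were not analysed here. Figures were drawn with matplotlib 3.10.9.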

Additional observations from a re-analysis of the deposited data

Results flagged for a closer look

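STZ moved in opposite directions in 2 genotypes, on every array. In npr1 sni1 ssn2 it had 26.6 and 25.1 on the SA arrays, against 255, 270.3 and 243 on the water arrays, a log2 difference of -2.70. In npr1 sni1 it had 650.3, 602 and 611 on the SA arrays, against 138, 102 and 132 on the water arrays, a log2 difference of 2.19. In npr1 sni1 brca2a it had -0.52, which did not pass (adjusted p = 0.11). AT5G53420 also moved in opposite directions in npr1 sni1 ssn2 and npr1 sni1, with 357 and 430.2 on the SA arrays, against 64.00, 54.4 and 71.9 on the water arrays in npr1 sni1 ssn2 (2.37), while npr1 sni1 had 66.04, 64.8 and 67.5 on the SA arrays and 89.4, 119 and 94.1 on the water arrays (-0.50, adjusted p = 0.035, and between 0.07 and 0.11 without any 1 of the SA arrays or without water replicate 3 of npr1 sni1). In npr1 sni1 brca2a it had 0.11 (adjusted p = 0.65). Of all probe sets, 234 passed in opposite directions in npr1 sni1 ssn2 and npr1 sni1, and 467 did without water replicate 2 of npr1 sni1. The difference between the genotypes was not tested for either gene or for these counts, because the arrays of npr1 sni1 ssn2 were normalized apart and genotype and experiment cannot be told apart.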

How the results depend on the processing

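The count of 7558 probe sets past the threshold was between 6542 and 7832 with another offset, scaling, source of values or spread model with moderation, and with only the brighter 11373 probe sets tested. Without moderation it was 3984 (2184 higher, 1800 lower), with 3 residual degrees of freedom per probe set. With a 2-fold minimum it was 1025 (496 higher, 529 lower). Leaving out 1 array gave 5899 to 7091, with 3304 to 4052 higher and 2595 to 3039 lower; with 1 SA array left, that array is assumed to vary like the water arrays. The share of calls that were higher was 56.5%, and 49.7% after median centring (3837 higher, 3880 lower). Deviations from the group means had r of -0.099 and -0.0087 between SA and water arrays of replicate numbers 1 and 2. Since the deviations of 2 SA arrays mirror each other, these r cannot decide whether the arrays were paired. With the replicate block 7001 passed (4028 higher, 2973 lower), 6526 of them calls of the fit without it. With it, 4 named genes lost their call (PRK, AOP1, ZIP6 and RECQ4A) and SAG101 gained one. Of 166 named genes past the threshold, 132 kept their call in every alternative setting that tested them (14 for 113 genes, and 13 for the 19 dimmer genes not among the brighter probe sets), 24 lost it without 1 array, 33 without moderation, and none of the 166 changed sign. Of 273 list counts recomputed under alternatives, 36, in 17 of the 39 lists, moved by over 1.5 times. Leaving out 1 array of the other table, tried after the data were seen, gave 379 to 3495 calls in npr1 sni1 brca2a (1057 with all 12 arrays) and 1090 to 4464 in npr1 sni1 (1700), the highest of both without water replicate 2 of npr1 sni1. The offset compresses the changes of dim genes, and 2 SA arrays give a weak estimate of their own spread.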

Other observations

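Several groups not described above also held genes past the threshold. Of 17 genes of protein folding and secretion in the endoplasmic reticulum, 5 rose and 2 fell, 7 passing in all (41.2%, where 30.0% of all genes passed); without SA replicate 1 it was 3 higher and none lower, without SA replicate 2 it was 1 higher and 2 lower, and without water replicate 1 it was 2 higher and 1 lower. The list was led by DER2.2, of the degradation pathway for misfolded proteins, with 170.3 and 181 on the SA arrays, against 108, 106 and 115 on the water arrays (0.60 ± 0.058, adjusted p = 0.00056). Of 8 glucosinolate genes 1 rose and 3 fell (12.5% and 37.5%, against 16.9% and 13.1% of all genes). GTR2, a glucosinolate transporter, had 0.40 ± 0.058, and UGT74B1, of core glucosinolate synthesis, had -0.49 ± 0.05. TRY, which patterns trichomes, had 30.97 and 39.5 on the SA arrays, against 124, 122 and 133 on the water arrays (-1.48 ± 0.084, 7.5e-05). Of 7 phenylpropanoid genes 1 rose and 1 fell (28.6%), or 1 rose and 2 fell without water replicate 2, and the peroxidase gene PRX52 had 41.8 and 29.2 on the SA arrays, against 11.4, 11.1 and 13.2 on the water arrays (0.87 ± 0.11, 0.0016). Of 2 measured phosphate starvation genes none passed, or 1 without SA replicate 2, and of 5 genes of nitrogen and sulfur assimilation 1 rose, or none without water replicate 1 or 2.

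In npr1 sni1, water replicate 2 stood apart from its mates in genes named above. CCL had 1035, 2503 and 1099 on the water arrays of that genotype, AFR 527, 202 and 586 and BHLH101 45.6, 124 and 46.6, in replicate order from 1 to 3. AFR had -0.70 in npr1 sni1 (adjusted p = 0.22) and -1.17 without that array (1.1e-06), and HYH -0.035 (0.96) and -0.31 (0.028). COR27, in contrast, had 11.3, 8.82 and 13.1 there. Across 22746 probe sets, the deviation of that array from the mean of its mates had a Pearson's r of 0.50 with the SA minus water difference of npr1 sni1 ssn2. For each of the other 11 arrays of that table, the same r was between -0.47 and 0.088, the negative end being the mates of water replicate 2. These are correlations across probe sets, which are not independent, between arrays that share no sample, and no cause was tested.

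Among reference genes often used to normalise transcript levels, 2 of 4 measured rose after SA, or 1 without water replicate 1 or 2. Of all genes, 16.9% rose. TUB9, a tubulin gene, had 1000.00 and 972 on the SA arrays, against 783, 752 and 779 on the water arrays (0.35 ± 0.05), and PEX4 had 624 and 735 on the SA arrays, against 521, 504 and 542 on the water arrays (0.37 ± 0.08), a call lost without SA replicate 2 or without water replicate 1 or 2 (adjusted p = 0.053 to 0.059). GAPC2 had -0.027 ± 0.06. The log2 3'/5' ratios of the actin, GAPDH and ubiquitin control probes were higher on the SA arrays by 0.15, 0.12 and 0.31 (exact permutation test, two-sided p = 0.3, 0.1 and 0.1), where 0.1 is the smallest p that 2 arrays against 3 allow.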
